A study of Mus musculus with 5 samples.

Results

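The genes described here encode the antigens by which long-term haematopoietic stem cells (LT-HSCs) are sorted and the surface receptors that mark them: Slamf1, Cd48, Kit, Ly6a, Cd34, Flt3, Procr, Tek and Esam. They were listed by name, and every probe set that the platform annotation assigned to 1 of them alone was used. Of the 9 listed genes, 8 had such a probe set, out of 18193 genes in the whole table. Ly6a, which encodes Sca-1, had no probe set assigned to it alone and was not analysed here. The 8 genes had 11 probe sets, and 10 of these passed the filter on low values, which removed the dimmest 40% of probe sets (mean log2 intensity below 5.77). The brightest probe set of each of the 8 genes passed it and represents the gene below.

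The arrays measured RNA of LT-HSCs of C57BL/6 mice aged 4 weeks. Both groups carried Cre recombinase under the interferon-responsive Mx1 promoter and received 2 injections of pIpC, a double-stranded RNA analogue (250 µg each), with cells taken 9 days after the first. Controls (2 arrays) had the genotype Zbtb7a Flox/+ Mx1-Cre+, so they had 1 floxed allele and were heterozygous for LRF, the factor that Zbtb7a encodes. Knockouts (3 arrays) were Zbtb7a Flox/Flox Mx1-Cre+. Mx1-Cre is active in many cell types besides blood stem cells, and pIpC itself calls out an interferon response in both groups. The gate took lineage-negative, Sca-1-positive, Kit-positive (LSK) cells that lacked IL7Ra, Flt3 and CD48 and carried CD150, the product of Slamf1. The description of knockout replicate 3 names 2 animals and does not say whether their cells were pooled.

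Blood stem cells are recognised by what they display. CD150 and CD48 belong to the SLAM family of adhesion receptors, and the code CD150-positive, CD48-negative separates stem cells from the multipotent progenitors that gain CD48. Kit is the receptor tyrosine kinase for stem cell factor, and Flt3 is a related kinase that appears as progenitors turn towards lymphoid and myeloid fates. Procr (the endothelial protein C receptor), Tek (the angiopoietin receptor Tie2) and Esam (an endothelial adhesion molecule) are shared between stem cells and endothelium, and CD34 protein is low on adult LT-HSCs and higher on progenitors. A sort acts on surface protein, so transcripts of excluded antigens can still be present.

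Knockout replicate 2 stood apart from the other arrays in several of these genes, and results are therefore given with and without it. Its correlation with each other array over all probe sets was 0.945 to 0.970, against 0.977 to 0.990 among the other 4 arrays. Transcripts of the stem cell antigen CD150 were lowest on it and those of the excluded antigens CD48 and IL7Ra were highest on it. Those of Flt3, also excluded, were neither (8.56, against 8.25 to 9.50 elsewhere). Il7r was high on knockout replicate 1 as well, at 9.35 against 6.21 to 7.44 in the controls and knockout 3. The targeted gene Zbtb7a read 8.22 and 8.36 in controls and 8.72, 8.33 and 9.06 in knockouts 1 to 3 on its brightest probe set. The position of its probes relative to the deleted part was not analysed, so they are no check of the genotype labels. Mecom, a stem cell transcription factor outside the gate, read 10.70 and 11.68 in controls and 10.84, 8.38 and 11.17 in knockouts, a difference of -1.06 (SE 0.96) that was -0.19 without knockout replicate 2. The unit throughout is log2 intensity after RMA, so a difference of 1 is a doubling, and levels of different probe sets are not comparable with each other.

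In the comparison of knockout with control, 7 of the 8 genes had a lower knockout mean and 1, Cd48, a higher one. No gene was called: 0 of 8 passed limma's test at an adjusted p under 0.05, against 0.00% of 27022 probe sets tested (306 of which had an unadjusted p under 0.05, none of them the brightest of these 8 genes). The groups overlapped for all 8 genes, as they did for most of the 12813 genes tested. Of these 12813, 4.50% had all 3 knockout values below both controls and 2.68% had all 3 above. The median log2 difference was -0.59 over the 8 genes and -0.03 over the 12813. Without knockout replicate 2 it was 0.08 over the 8 genes and 0.00 over all. Over the 8 genes it was 0.04 without control replicate 2 and -1.02 without control replicate 1. Without control replicate 1, control 2 alone lay above all knockouts for 5 of the 8 genes. A single gene did not overlap without control replicate 2 (Cd48, higher in knockouts), and a single gene without knockout replicate 3 (Slamf1, lower). Shares over all genes were not computed for these omissions. Groups of fewer arrays separate more easily, so the 4.50% and 2.68% are no background for these counts. Exact two-sided permutation tests gave p = 0.4 to 0.9 for the 8 genes, where 2 against 3 arrays allow no p below 0.1.

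Values of single arrays show where the difference lies. Of the 8 genes, 6 were lowest on knockout replicate 2 (40.5% of all genes were) and 1 was highest on it (26.0% of all genes were). For 5 of them that array lay at least 1 log2 unit below the lowest of the other 4 arrays, as 3.83% of all genes did. Cd48 lay at least 1 log2 unit above the highest, as 3.60% of all genes did. Because these genes were chosen with earlier results of these arrays known, the shares are a description. All 8 genes were also higher in control 2 than in control 1, by 0.71 to 1.76 (median 0.94), as were 56.3% of all genes (median 0.08). In bulk RNA, fewer cells of a type and less RNA per cell cannot be told apart.

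**Figure D1:**
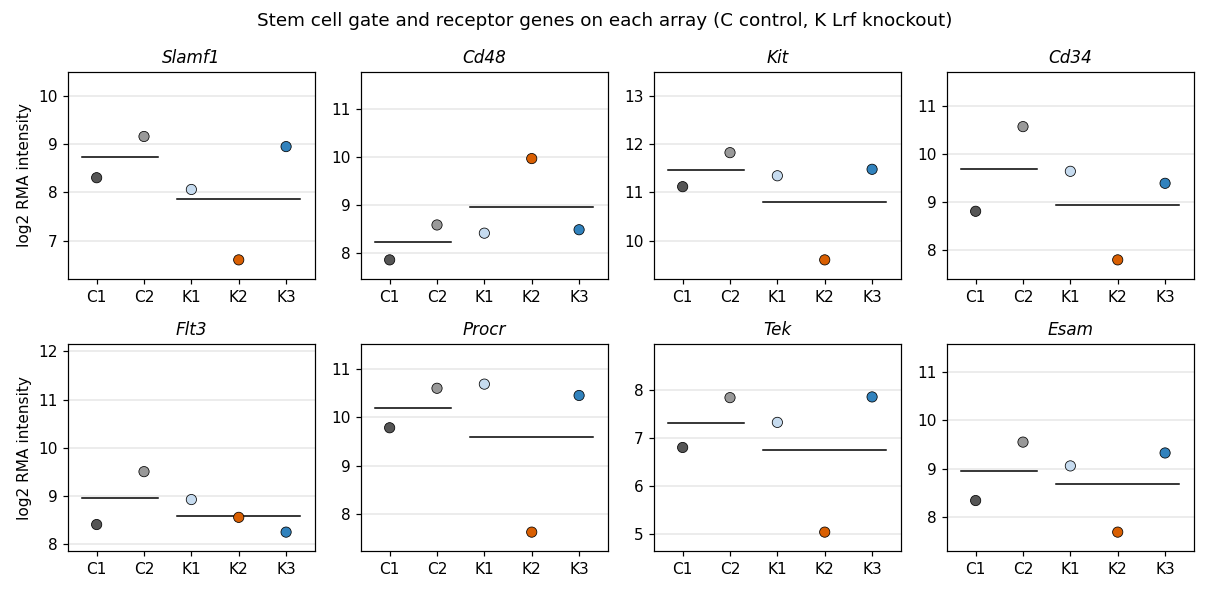
Log2 RMA intensity of the brightest probe set of each gene on the control arrays (C1, C2) and the Lrf knockout arrays (K1 to K3), with a line at each group mean and a y axis of equal span in every panel. K2 is the lowest point for Slamf1, Kit, Cd34, Procr, Tek and Esam and the highest for Cd48, and it lies at least 1 log2 unit outside the other 4 arrays for each of these except Esam.

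Slamf1, whose product CD150 is the positive marker of the gate, read 8.30 and 9.16 in the controls and 8.06, 6.60 and 8.95 in knockout replicates 1 to 3. Knockout 3 lay between the controls, knockout 1 just below them, and knockout 2 lay 1.46 below the lowest other array. The means were 8.73 ± 0.60 (SD, n = 2) and 7.87 ± 1.19 (SD, n = 3), a log2 difference of -0.86 (SE 0.76, limma 95% interval -2.86 to 1.14). Without knockout replicate 2 the difference was -0.23 (interval -1.55 to 1.09). A second Slamf1 probe set differed by -0.54 (SE 0.43), with 5.93 on knockout replicate 2 and 6.83 to 7.49 elsewhere. The third was below 5.77 on every array and was not tested.

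Cd48, the negative marker of the gate, binds SLAM family receptors and appears as stem cells become progenitors. It read 7.87 and 8.59 in the controls and 8.42, 9.97 and 8.49 in the knockouts. Knockout replicate 2 lay 1.38 above the highest other array, and knockouts 1 and 3 lay between the controls. Its means were 8.23 ± 0.51 (SD, n = 2) and 8.96 ± 0.87 (SD, n = 3), a log2 difference of 0.73 (SE 0.58, limma 95% interval -0.78 to 2.25). This was 0.23 without knockout replicate 2 (interval -0.60 to 1.05). Against the mean of the other 4 arrays, knockout replicate 2 was -2.02 for Slamf1 and 1.63 for Cd48.

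Slamf1 and Cd48 lie in one cluster of 7 SLAM family genes on mouse chromosome 1. Their start regions are shown since these near neighbours lay at opposite ends on knockout replicate 2. Each is the 250 bases before the RefSeq start, 5′ to 3′, from the GRCm38.p6 table, on the plus strand at chr1:171766882-171767131 for Slamf1 and chr1:171681742-171681991 for Cd48. Capitals mark matches, on either strand, to GATAA (a core recognised by GATA factors) or TGTGGT (a core recognised by RUNX factors).
Slamf1: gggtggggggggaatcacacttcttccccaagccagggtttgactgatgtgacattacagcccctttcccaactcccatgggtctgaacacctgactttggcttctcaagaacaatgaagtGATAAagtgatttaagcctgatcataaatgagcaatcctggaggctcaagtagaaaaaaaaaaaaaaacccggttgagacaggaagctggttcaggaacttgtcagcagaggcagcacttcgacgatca
Cd48: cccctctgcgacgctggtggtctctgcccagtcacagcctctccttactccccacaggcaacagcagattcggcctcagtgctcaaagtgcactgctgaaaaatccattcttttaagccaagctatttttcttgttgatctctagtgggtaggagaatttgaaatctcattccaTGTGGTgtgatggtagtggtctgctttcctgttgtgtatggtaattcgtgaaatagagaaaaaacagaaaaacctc
Besides these, GAAANNGAA was searched on both strands, a pattern of interferon-response elements in which N is any base. Slamf1 held 1 GATAA and Cd48 held 1 TGTGGT, without overlap between motifs. Of 32851 RefSeq windows of the same length, 22.6% held GATAA, 14.0% TGTGGT and 7.13% GAAANNGAA. No match to any of the 3 was found in the windows of Kit, Cd34, Flt3, Procr and Tek; Esam and Ly6a were not matched. A match is a description of letters and was not tested for binding.

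Along that cluster, knockout replicate 2 was the highest array for 6 of the 7 genes and the lowest for Slamf1. Cd244a, the 2B4 receptor that binds CD48, read 8.43 there and 4.46 to 6.37 elsewhere, although its mean was below the filter. Ly9, another SLAM receptor, read 7.24 against 6.03 to 6.38, and Slamf7, found on lymphocytes and plasma cells, 7.85 against 6.07 to 6.59. Cd84, a SLAM receptor of many blood cells, read 10.24 against 8.44 to 9.13, and Slamf6, a lymphocyte receptor, 6.91 against 5.67 to 6.10. Of the 7 SLAM genes listed beside Slamf1 and Cd48, 5 passed the filter, all highest on knockout replicate 2, and 0 were called. Their median difference between groups was 0.44, and 0.13 without that array.

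**Figure D2:**
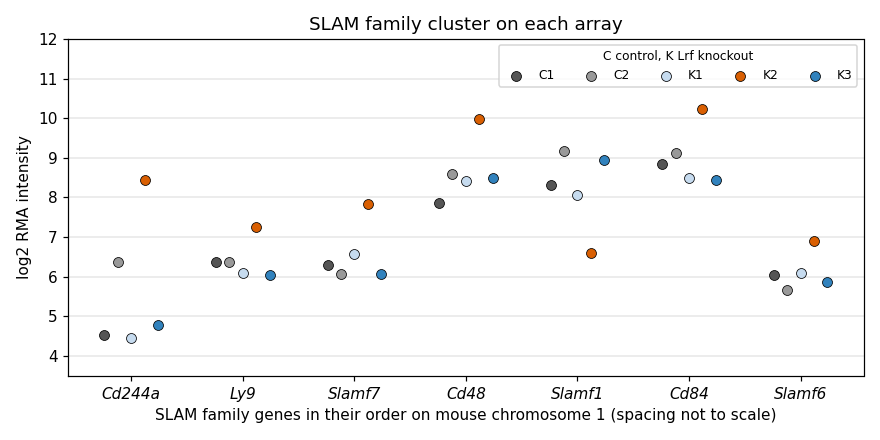
Log2 RMA intensity of the 7 SLAM family genes in their order on mouse chromosome 1, for controls (C1, C2) and Lrf knockouts (K1 to K3). K2 is the highest point for 6 genes and, at 6.60, the lowest for Slamf1.

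Kit, the receptor of stem cell factor and a positive marker of the gate, read 11.12 and 11.82 in controls and 11.34, 9.60 and 11.48 in knockouts. Knockouts 1 and 3 lay between the controls, and replicate 2 lay 1.52 below the lowest other array. The means were 11.47 ± 0.50 (SD, n = 2) and 10.81 ± 1.05 (SD, n = 3), a difference of -0.66 (SE 0.67, limma 95% interval -2.42 to 1.10). It was -0.06 without knockout replicate 2 (interval -0.88 to 0.76). The second Kit probe set differed by -0.40 (SE 0.25), and -0.24 without that array. Both probe sets have names containing _a_at, which marks probes shared by several transcripts of a gene.

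Flt3 was the one gene of the 8 for which knockout replicate 2 was neither lowest nor highest. It read 8.41 and 9.50 in controls and 8.92, 8.56 and 8.25 in knockouts, so its transcript lay above 5.77 on all 5 arrays although its protein was excluded by the sort. The means were 8.95 ± 0.78 (SD, n = 2) and 8.58 ± 0.34 (SD, n = 3), a difference of -0.38 (SE 0.40, limma 95% interval -1.44 to 0.68). The value without knockout replicate 2 was -0.37, and the interval -1.74 to 1.005. Against the mean of the other 4 arrays, knockout replicate 2 differed by -0.22 for Flt3 and by -1.84 for the related kinase gene Kit.

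Procr had the largest range of the 8 genes, 3.07 log2 units. It read 9.79 and 10.60 in controls and 10.69, 7.62 and 10.46 in knockouts. Knockout 1 was the highest array and knockout 2 the lowest. The means were 10.19 ± 0.58 (SD, n = 2) and 9.59 ± 1.71 (SD, n = 3), a difference of -0.61 (SE 1.05, limma 95% interval -3.37 to 2.16). Without knockout replicate 2 the sign turned, to 0.38 (interval -0.57 to 1.32). The name of its probe set contains _s_at, which marks probes that can match transcripts of more than 1 gene.

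Tek, the angiopoietin receptor, had the same reversal. It read 6.80 and 7.83 in controls and 7.32, 5.04 and 7.85 in knockouts, and the value on knockout 2 lay below the filter level of 5.77. The means were 7.31 ± 0.73 (SD, n = 2) and 6.74 ± 1.49 (SD, n = 3), a difference of -0.58 (SE 0.95, limma 95% interval -3.07 to 1.91). It was 0.27 without that array (interval -0.98 to 1.51). Esam, the adhesion molecule, read 8.34 and 9.55 in controls against 9.06, 7.68 and 9.33 in knockouts. Its difference of -0.26 (SE 0.65, limma 95% interval -1.96 to 1.45) became 0.25 without that array (interval -1.08 to 1.57).

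Cd34, which encodes a sialomucin that the gate did not select on, had the widest gap between the controls. They read 8.81 and 10.56, and the knockouts 9.64, 7.80 and 9.39. Knockouts 1 and 3 thus lay between the 2 controls, which alone were 1.76 apart. The means were 9.69 ± 1.24 (SD, n = 2) and 8.94 ± 0.997 (SD, n = 3), a difference of -0.74 (SE 0.80, limma 95% interval -2.85 to 1.36). This was -0.17 without knockout replicate 2 (interval -2.04 to 1.69) and 0.13 without control replicate 2. Flt3 and Esam also turned positive without control replicate 2, to 0.17 and 0.35.

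**Figure D3:**
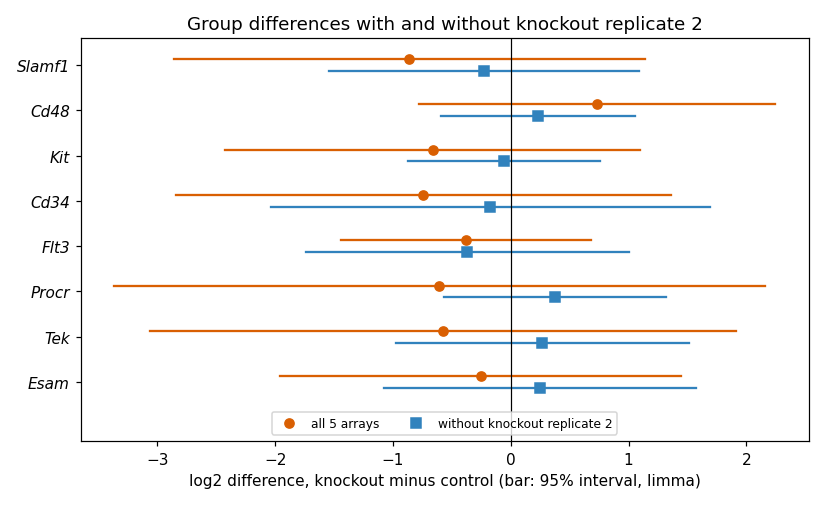
Log2 difference of knockout minus control for each gene with its limma 95% interval, from all 5 arrays (circles) and without knockout replicate 2 (squares). Every interval spans 0, and the estimates for Procr, Tek and Esam change sign when that array is left out.

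Ligands and partners of these receptors had 6 of 7 genes matched, all passing the filter, and 0 called. Kitl, which encodes stem cell factor, the ligand of Kit, was lower in all 3 knockouts on its brightest probe set. It read 7.72 and 7.63 in controls and 6.12, 6.01 and 7.07 in knockouts, with no overlap of groups (1 of 6 genes, against 4.50% of all genes in that direction). The difference was -1.28 (SE 0.37, limma 95% interval -2.25 to -0.30, adjusted p = 1; exact permutation p = 0.2), and -1.08 without knockout replicate 2. The other 3 Kitl probe sets differed by -0.13, -0.22 and -0.16, of which the last 2 lay below 5.77 on every array. Stem cell factor is made mainly by niche cells such as stroma and endothelium.

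Macrophage markers were low on the same arrays: 13 of 14 had a lower knockout mean and 10 showed no overlap of groups (4.50% of all genes did so in that direction), with 0 called. The mean level of these markers was 10.76 and 9.88 in controls and 8.45, 8.51 and 9.64 in knockouts. Of the 14, 0 were below 5.77 on all arrays. Their part in the Kitl result was not tested.

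Angpt1, the ligand of Tek that stem cells themselves can make, read 11.38 and 12.50 in controls and 11.75, 9.22 and 11.84 in knockouts. Its difference of -1.002 (SE 0.96) became -0.14 without knockout replicate 2. Tie1, the orphan receptor that pairs with Tek, read 7.22 and 7.98 in controls and 7.25, 5.72 and 7.84 in knockouts, a difference of -0.66 (SE 0.70; -0.06 without that array). F2r, the thrombin receptor through which Procr-bound protein C can signal, read 12.38 and 12.94 against 12.86, 10.54 and 12.61, a difference of -0.66 (SE 0.79; 0.08 without it). These 3 genes were lowest on the same array as Tek and Procr, and knockouts 1 and 3 fell within the range of the controls.

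**Figure D4:**
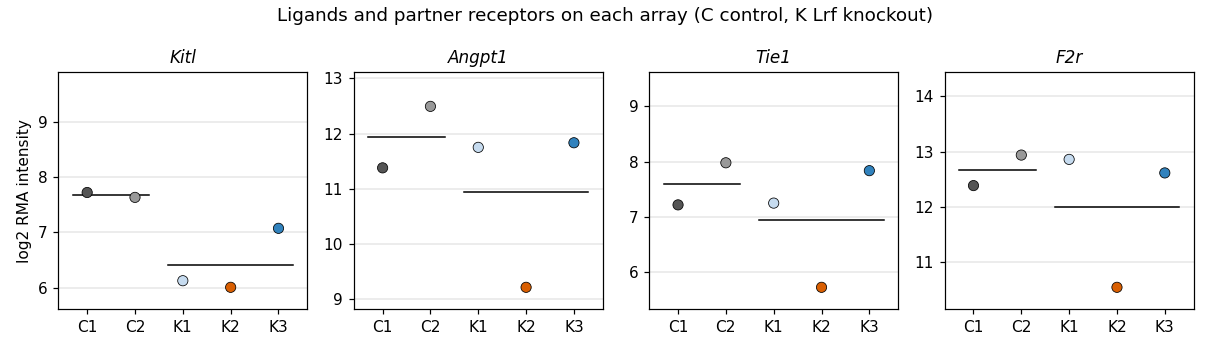
Log2 RMA intensity of Kitl, Angpt1, Tie1 and F2r on the control (C1, C2) and Lrf knockout (K1 to K3) arrays, with group means as lines and equal y spans. Kitl is lower on all 3 knockout arrays, while Angpt1, Tie1 and F2r are low on K2 alone.

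Genes of the signalling pathway below Kit and Flt3 varied less. Of 16 listed, 15 were matched and passed the filter, 7 were higher and 8 lower in the knockout mean, and 0 were called, with a median difference of -0.02. Pik3r1, the regulatory subunit of PI3-kinase, was the one member with no overlap, lower in knockouts (1 of 15, against 4.50% of all genes; difference -0.33, SE 0.18). Cblb, a ubiquitin ligase, differed by 0.29 (SE 0.22), Pik3cd, a catalytic PI3-kinase subunit, by 0.31 (SE 0.26) and Sh2b3, the adaptor LNK that restrains Kit, by 0.29 (SE 0.39). Leaving out knockout replicate 2 gave -0.06 for Sh2b3 and 0.16 for Pik3cd. Knockout replicate 2 lay at a list median of 0.14 relative to the control mean, where the 8 gate and receptor genes lay at -1.88.

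Other surface genes of stem cells were mixed. Of 28 listed, 26 were matched and 23 passed the filter, with 10 higher, 13 lower and 0 called (median -0.19; -0.04 without knockout replicate 2). Selp (P-selectin, which tethers leukocytes and platelets) had a difference of -1.39 (SE 0.61), with 7.63 and 9.00 in controls and 6.25, 7.68 and 6.83 in knockouts. Jam2, a junctional adhesion molecule, differed by -0.29 (SE 0.17), Thy1, a surface glycoprotein of low level on stem cells, by 0.81 (SE 0.55) and Mcam by 0.27 (SE 0.19; 0.16 without knockout replicate 2). Itga2b was the 1 gene of the 23 without overlap of groups, lower in knockouts (4.50% of all genes had none in that direction). On knockout replicate 2, 8 of the 23 were lowest, among them the integrin genes Itga2b and Itga6, Cd27, Eng and Adgrg1, and 9 were highest. The list thus split on that array, whereas 6 of the 8 gate and receptor genes were lowest on it.

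The Ly6 family, to which Ly6a belongs, had 7 of 10 genes matched, 4 of which passed the filter; 0 were called (median 0.15; 0.07 without knockout replicate 2). Ly6e, a relative of Sca-1, read 11.31 and 11.81 in controls and 12.22, 11.91 and 11.05 in knockouts. Ly6d, a marker of early lymphoid cells, differed by 0.95 (SE 0.46; 0.58 without knockout replicate 2) with no overlap, 1 of 4 genes (2.68% of all genes did so). Gpihbp1, the lipase-binding protein of capillaries, differed by 0.09 (SE 0.15) and Ly6h by 0.14 (SE 0.20).

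Transcripts of antigens that the sort excluded read at varying levels, and no detection call was made. Of 10 such genes, 6 were matched and 5 passed the filter, with 0 called and a median difference of 0.07. Il7r, which encodes the IL7Ra of the gate, read 6.21 and 7.30 in controls and 9.35, 10.50 and 7.44 in knockouts (difference 2.34, SE 0.98), and was the 1 gene of the 5 without overlap of groups (2.68% of all genes had none in that direction). Cd4 differed by -0.30 (SE 0.20), Cd3e by 0.28 (SE 0.24) and Itgam, the CD11b integrin of myeloid cells, by -0.54 (SE 1.42). Without knockout replicate 2 the differences were 1.64 for Il7r, 0.10 for Cd3e and -1.72 for Itgam, and the list median was -0.19. Itgam read 4.42 on knockout 1 and 8.83 on knockout 2, with controls at 7.84 and 6.17.

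Markers of other cell types also stood apart on knockout replicate 2. B lineage markers were highest there for 9 of 9 tested, with a mean level of 9.24 against 6.99 to 7.42 elsewhere. Ebf1 and Blk among them passed the filter only through that array (means of the other 4 arrays 5.63 and 5.68), so their place in this count was fixed by the filter. Granulocyte-monocyte progenitor markers were highest there for 8 of 8 (11.77 against 9.52 to 10.27). Mast cell and basophil markers were highest for 5 of 6 (9.13 against 6.74 to 6.98), Mcpt8 among them at 10.92 against 5.76 to 6.84. Lymphoid progenitor markers were highest there for 6 of 9 but did not set that array apart. Their mean level was 9.66 on it, 9.32 on knockout 1 and 7.84 to 8.21 on the other arrays. Immediate early genes were highest for 12 of 12 (11.52 against 7.78 to 8.10), with Fos at 14.04 against 6.96 to 7.23. The part of these transcripts in the low Slamf1, Kit, Procr, Tek and Esam values and the high Cd48 value was not tested.

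Endothelial cells share Tek, Procr, Esam and Cd34 with stem cells. Of 12 endothelial markers, 8 passed the filter and their mean level was 8.03 and 8.10 in controls and 8.04, 7.29 and 8.13 in knockouts. Of the 12, Cdh5, Emcn, Pecam1 and Lyve1 had means below the filter level, and Cdh5 and Emcn stayed below 5.77 on all 5 arrays. The 8 that passed, Kdr, Flt1 and Egfl7 among them, lay above 5.77 on all 5 arrays. The list median differed by -0.08 between the groups (0.05 without knockout replicate 2), with 5 of 8 lowest on knockout replicate 2. Stab2, a scavenger receptor of sinusoids, differed by -1.16 (SE 0.49), Vwf by -1.27 (SE 0.89; -0.47 without that array), Plvap by 0.57 (SE 0.31) and Cldn5 by 0.25 (SE 0.16).

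Transcripts of mature cells separated the controls from each other. Neutrophil markers had a mean level of 14.03 in control 1 and 12.46 in control 2, and 11.03, 14.49 and 12.41 in knockouts; all 9 were higher in control 1, where all 8 gate and receptor genes were lower. Erythroid markers followed with 12.36 and 10.40 in controls and 10.95, 12.08 and 11.58 in knockouts, again with all 9 higher in control 1. Median differences between groups were -0.47 for neutrophil, 0.24 for erythroid and -0.47 for megakaryocyte markers, and 0 were called. With knockout replicate 2 left out they were -1.27, 0.40 and -0.15. Of the 8 megakaryocyte markers tested, 7 were lowest on knockout replicate 2 (mean level 7.83 against 8.57 to 8.91). For 4 of the 8, all 3 knockouts lay below both controls (4.50% of all genes did so). The part of these cells in the spread of the gate genes between the controls was not tested.

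Interferon response genes set knockout replicate 1 apart instead. Of 13 tested, 12 were highest on it (mean level 11.34, against 8.65 to 9.34 elsewhere), with Mx1 at 10.77 against 5.47 to 7.30. The 8 gate and receptor genes lay at a median of -0.01 relative to the control mean on that array and 0.24 on knockout 3. Median differences between groups were 1.31 for interferon response genes, 0.93 for immediate early genes, 0.95 for lymphoid progenitor, 0.62 for mast cell and basophil, 0.41 for B lineage, 0.33 for T lineage, 0.21 for granulocyte-monocyte progenitor and -1.79 for macrophage markers, and 0 genes in any of these lists were called. Without knockout replicate 2 the sign turned for immediate early genes (-0.18), B lineage (-0.25) and granulocyte-monocyte progenitor markers (-0.36). The other medians without it were 1.52 for interferon response genes, 1.02 for lymphoid progenitor, 0.18 for mast cell and basophil, 0.30 for T lineage and -1.34 for macrophage markers. Leaving out knockout replicate 1 instead lowered the difference of all 13 interferon response genes. Mx1 went from 2.51 to 1.32, and Oas2, which held the list median, from 1.31 to 0.51. All 3 knockouts lay above both controls for 8 of these 13 and 4 of 9 lymphoid progenitor markers (2.68% of all genes). So did 2 of 6 mast cell and basophil, 2 of 6 T lineage and 1 of 12 immediate early genes.

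**Figure D5:**
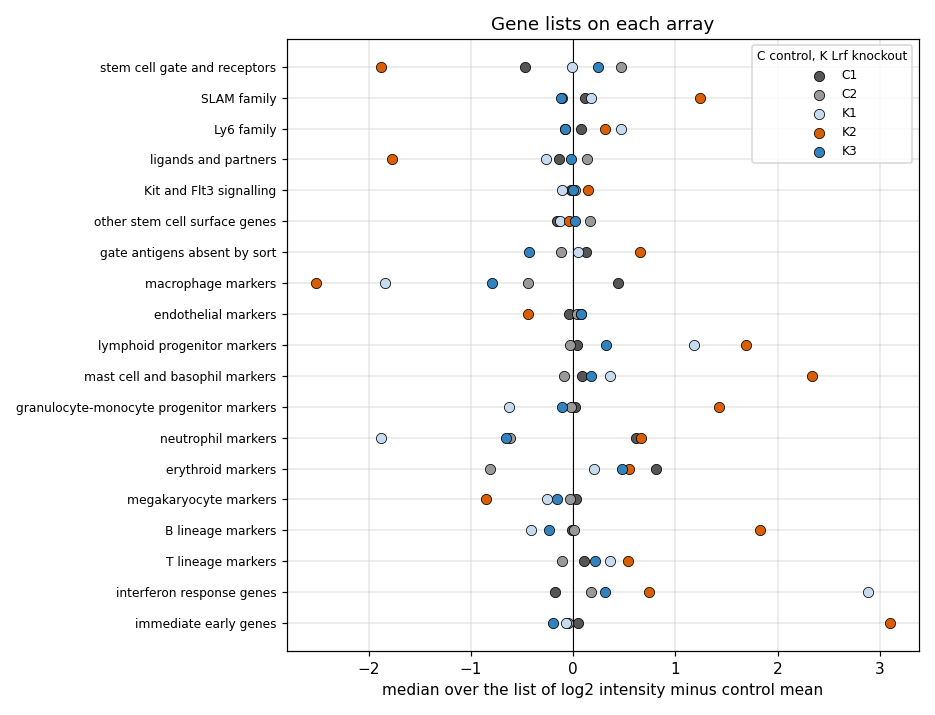
Median over each gene list of log2 intensity minus the control mean, for controls (C1, C2) and Lrf knockouts (K1 to K3). The stem cell gate and receptor genes lie at -1.88 on K2 and between -0.47 and 0.47 on the other arrays, and the immediate early, mast cell, B lineage and granulocyte-monocyte progenitor lists are highest on K2.

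The shapes of the 8 profiles over the 5 arrays were compared by the root mean square (RMS) difference of centred log2 values, a description over few arrays. The closest pair was Slamf1 and Kit (0.26 log2 units), followed by Kit and Esam (0.28), Procr and Tek (0.29) and Slamf1 and Tek (0.30). Cd48 was farthest from Procr (1.76), and Flt3 lay 0.62 to 1.09 from the others. Among all other genes, Kit was matched most closely by Cdk18 (0.04), a cyclin-dependent kinase, Shroom4 (0.06) and Cryz (0.07). Tek was matched by Ppic (0.08), Plekha8 (0.08) and Myct1 (0.11), Procr by Meg3 (0.12), an imprinted non-coding RNA, Cyp2j9 (0.12) and Zfp783 (0.14), and Slamf1 by Dcaf12l1 (0.09), Cldn12 (0.12) and Als2cl (0.13). Esam was matched by Snx16 (0.07), Tbc1d19 (0.07) and Ndufaf2 (0.08), and Cd34 by Sgce, Pogk and Lrch2 (each 0.16). Cd48 was matched by Dmkn (0.08), BC035044 (0.09) and Zswim6 (0.11), and Flt3 by Cgas (0.06), the cytosolic DNA sensor, Mid1 (0.07) and Ptpn18 (0.12). Cdk18 read 5.79 on knockout replicate 2 and 7.31 to 7.94 elsewhere, and Cgas ranged from 10.24 on knockout 3 to 11.44 on control 2.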

How the data were processed

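What the authors deposited is 1 log2 intensity for each probe set on each array. According to the labels and the submitters' processing notes it was computed by RMA in Expression Console, whose version is not stated in them. RMA forces the arrays to one distribution and so hides changes common to most genes. RNA was amplified by repeated in vitro transcription, per the labels' protocols. The table held 45101 rows; 64 Affymetrix control rows were left out. Of 45037 probe sets, 34945 had 1 symbol, 932 several and 9160 none. The lowest 40% by mean were left out and 27022 were fitted. The fit used lmFit and eBayes of limma 3.58.1 (R 4.3.3) without covariates, with two-sided p-values and Benjamini-Hochberg adjustment over all probe sets fitted. Intervals and SEs are those of this fit. Array medians were 6.38 to 6.40, and the number of arrays limits the precision. A gene was represented by its brightest single-gene probe set, which gave 12813 genes.

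The genes and 18 context lists were chosen with earlier results of these data known. Named genes are all members, up to 4 list genes of smallest p, and for profiles ranging over at least 1 log2 unit the 3 nearest genes; Mx1, Fos and Zbtb7a were fixed by name, and others named with values were chosen after these were seen. The fit was tested on simulated data. Settings varied one at a time were the prior (trended and robust), the filter (none, or 60%), array weights, normalization (cyclic loess, or centring on medians), averaging over the probe sets of a gene, blocking on replicate number, and omission of single arrays. Symbols came from the platform annotation and gene order from RefSeq (GRCm38.p6). Figures were drawn with matplotlib 3.10.9.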

Additional observations from a re-analysis of the deposited data

How the results depend on the processing

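No alternative called any probe set or any of the 8 genes; the lowest adjusted p of a member under any limma setting was 0.872. Of 103 recomputed differences of single genes, 9 changed sign. That total includes the settings of the prior and the filter, which alter SE and p but cannot alter a difference. With array weights, which gave knockout replicate 1 a weight of 7.67 and knockout replicate 2 one of 0.204, Procr differed by 0.40, Tek by 0.0125 and Esam by 0.11. The other changes of sign came from leaving out single arrays, over which the difference ranged from -1.62 to 0.13 for Cd34, -0.93 to 0.17 for Flt3, -1.16 to 0.38 for Procr, -1.13 to 0.27 for Tek and -0.86 to 0.35 for Esam. The count of genes whose groups did not overlap ranged from 0 to 5 in the same way, with no matching share over all genes. It was not recomputed under cyclic loess. The cause of these changes was not tested, beyond which array was left out. Where a control was left out, the lone control was assumed to vary like the knockouts.

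With the replicate block, replicate 3 of the knockouts has no partner, so the differences equal those without that array and are no separate estimate. The median difference of the 8 genes with this block was -0.98 and 0 were called. That median was -0.05 with array weights, ranged from -1.02 (without control replicate 1) to 0.08 (without knockout replicate 2) on leaving out single arrays, and was 0.04 without control replicate 2. Same-numbered arrays deviated from their group means in opposite ways (correlations over probe sets of -0.538 and -0.570); with 2 controls these are not separate evidence, and the labels name no shared source for a number. With 2 control arrays, the 95% intervals of all 8 genes span 0 and reach beyond 1 log2 unit in at least 1 direction.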

Other observations

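Many listed genes, all tested neutrophil markers among them, were high on control 1 and knockout 2 together, unlike the gate genes. The 4 described here were chosen after their values were seen, and Mmp8 and Alas2 belong to the neutrophil and erythroid lists. Prom1, the surface glycoprotein prominin, read 10.89 and 9.21 in controls and 7.62, 10.99 and 8.98 in knockouts. Nrp1, a co-receptor for semaphorins and vascular growth factor, read 9.42 and 7.62 against 7.22, 10.04 and 7.86. Mmp8, the neutrophil collagenase, read 11.88 and 8.16 against 6.95, 13.57 and 8.25, and Alas2, the erythroid heme synthesis enzyme, 11.75 and 7.72 against 6.71, 12.89 and 7.88. In each of these 4 genes control 1 and knockout 2 were the highest arrays and knockout 1 the lowest.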
